A study of Mus musculus with 6 samples.

Results

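The acute-phase genes described here were Hp, Lcn2, Saa3, Cp, Serpina3n, Serpina3g, Lbp, Orm1, Steap4 and Ptx3, which are 10 of the 20071 genes in the count table. They were picked by name as acute-phase plasma proteins and relatives, with the genotype contrast of these data already known, so their differences between genotypes are a description and carry no test. All 10 were listed in the table, and 9 had enough counts for the fit across genes. Orm1 did not. The libraries came from bone marrow mesenchymal stem cells (MSCs) of femurs of 6-week-old C57BL/6J mice. The control group was Pcif1fl/fl, in which both Pcif1 alleles carry loxP sites around exons 5 to 7 and no Cre is present, with 3 libraries. The other group was Prrx1-Cre;Pcif1fl/fl, in which Cre driven by a Prrx1 enhancer of limb mesenchyme deletes those exons in mesenchymal cells, also with 3 libraries. This Cre is not known to act in blood-derived cells, and such cells in the cultures would keep Pcif1 in both groups. Both groups were cultured for 7 days in osteogenic medium. Its additions were ascorbic acid at 50 μg/mL, β-glycerophosphate at 5 mM and the glucocorticoid dexamethasone at 100 nM. PCIF1 writes m6Am, a methyl mark on an adenosine next to the mRNA cap, and the comparison asks how its loss changes the transcriptome during osteogenic induction. The sources used here do not say whether the 3 libraries of a genotype came from separate mice or cultures, so the spread between them may be technical. The series' design text speaks of duplicates, while 3 libraries of each genotype are labelled and present.

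The acute-phase response is the change in secreted plasma proteins that follows infection or injury. Liver cells make most of these proteins when IL-6 family cytokines, IL-1 and TNF reach them through STAT3, C/EBP and NF-kB factors, and glucocorticoids strengthen the response. Many of the genes are also active outside the liver, in adipocytes, macrophages and stromal cells of the bone marrow. The proteins fall into a few roles. Haptoglobin binds free hemoglobin, lipocalin-2 binds the siderophores with which bacteria take up iron, ceruloplasmin carries copper and oxidizes iron, and STEAP4 reduces iron and copper at membranes. The SERPINA3 proteins inhibit serine proteases. Lipopolysaccharide-binding protein, serum amyloid A3, pentraxin 3 and the orosomucoids bind microbial products, lipids or small molecules in plasma and tissue fluid.

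Total counts were 22689775 to 28227696 in the Pcif1fl/fl libraries and 20258209 to 22530242 in the Prrx1-Cre;Pcif1fl/fl libraries. Pcif1 itself was at 42.8, 41.7 and 39.3 CPM (counts scaled to library size with edgeR's TMM factors) in Pcif1fl/fl MSCs and at 39.2, 37.8 and 39.7 CPM in Prrx1-Cre;Pcif1fl/fl MSCs, and the genotypes overlapped. These whole-gene counts include exons outside the deletion and do not check it, and 16.9% of Pcif1 exonic bases overlap the antisense gene Zfp335. Pcif1fl/fl replicate 3 stood apart by its mitochondrial share of counts, which was 3.63% against 1.40% to 1.57% in the other 5 libraries. Xist, expressed from the inactive X chromosome of female cells, was at 232 to 443 CPM in Pcif1fl/fl MSCs and at 0.722 to 1.79 CPM in Prrx1-Cre;Pcif1fl/fl MSCs. The summed level of 4 Y-linked genes was 115 to 159 CPM in Pcif1fl/fl MSCs and 219 to 230 CPM in Prrx1-Cre;Pcif1fl/fl MSCs. Genotype and the share of female cells cannot be told apart in these libraries. In this fit 343 of 13733 genes were called lower and 142 higher at an adjusted p below 0.05 and a 2-fold difference.

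RefSeq promoters on the GRCm38.p6 build were at hand for 7 of the 10 genes, and the 250 bases before the annotated start were searched on both strands for 4 motifs. The motifs were TTNNGCAA for C/EBP, TTCNNNGAA for STAT factors, GGG and TTCC with 3 bases of any kind between them for NF-kB, and GNACA and TGTNC with 3 bases of any kind between them for the glucocorticoid receptor, where N is any base. The C/EBP motif was found in 5 of the 7 genes, Cp, Lcn2, Ptx3, Saa3 and Steap4, and in 9.56% of all 32851 promoters. The STAT motif was found in Serpina3g and Steap4 and in 7.02% of all promoters. The NF-kB motif was found in Serpina3g, Serpina3n and Steap4 and in 4.65% of all promoters, and the glucocorticoid receptor motif in Serpina3n and in 0.387% of all promoters. A match says only that the letters are present. The annotated first transcribed base, the base that m6Am marks when it is an adenosine, was A in Cp and Lcn2 and another base in the other 5 genes, and it was A for 34.4% of all promoters. Where these cells start transcription was not measured. Shown are the promoters of Lcn2 and Steap4, from the group of genes with a large difference between genotypes, of Saa3, whose libraries overlapped, and of Serpina3g and Serpina3n, which lie in 1 gene cluster and differed by unequal amounts. Each is written 5′ to 3′ on the strand of its gene, ends at the base before the start, and has the motif matches in capitals. The Lcn2 promoter (chr2:32387740-32387989, minus strand) holds a C/EBP match at positions -216 to -209 relative to the start. These bases lie inside the Lcn2 gene as GENCODE annotates it, so RefSeq and GENCODE place its start differently. The match position and the first base of Lcn2 hold for the RefSeq start only. The Steap4 promoter (chr5:7960222-7960471, plus strand) holds an NF-kB match at -226 to -217, a STAT match at -116 to -108 and a C/EBP match at -87 to -80. The Saa3 promoter (chr7:46715677-46715926, minus strand) holds a C/EBP match at -99 to -92. The Serpina3g promoter (chr12:104235897-104236146, plus strand) holds an NF-kB match at -85 to -76 and a STAT match at -33 to -25. The Serpina3n promoter (chr12:104406458-104406707, plus strand) holds an NF-kB match at -171 to -162 and a glucocorticoid receptor match at -78 to -66. The matches did not overlap each other.
Lcn2: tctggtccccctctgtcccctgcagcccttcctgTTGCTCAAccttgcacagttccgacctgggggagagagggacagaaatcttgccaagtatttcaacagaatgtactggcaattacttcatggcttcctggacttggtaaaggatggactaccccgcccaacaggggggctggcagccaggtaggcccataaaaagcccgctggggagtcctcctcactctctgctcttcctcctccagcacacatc
Steap4: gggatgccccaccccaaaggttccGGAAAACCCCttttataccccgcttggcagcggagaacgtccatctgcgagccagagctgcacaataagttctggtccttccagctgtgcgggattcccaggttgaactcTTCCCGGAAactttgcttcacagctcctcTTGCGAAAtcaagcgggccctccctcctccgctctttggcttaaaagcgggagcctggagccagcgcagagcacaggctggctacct
Saa3: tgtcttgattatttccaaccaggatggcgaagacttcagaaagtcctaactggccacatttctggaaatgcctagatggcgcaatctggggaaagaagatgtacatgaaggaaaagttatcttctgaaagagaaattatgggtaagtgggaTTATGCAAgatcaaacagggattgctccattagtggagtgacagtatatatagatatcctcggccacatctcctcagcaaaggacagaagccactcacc
Serpina3g: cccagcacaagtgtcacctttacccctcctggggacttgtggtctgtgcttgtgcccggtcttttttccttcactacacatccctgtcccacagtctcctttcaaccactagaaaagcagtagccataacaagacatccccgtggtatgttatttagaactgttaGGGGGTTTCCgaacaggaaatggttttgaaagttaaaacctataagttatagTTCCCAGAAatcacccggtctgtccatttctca
Serpina3n: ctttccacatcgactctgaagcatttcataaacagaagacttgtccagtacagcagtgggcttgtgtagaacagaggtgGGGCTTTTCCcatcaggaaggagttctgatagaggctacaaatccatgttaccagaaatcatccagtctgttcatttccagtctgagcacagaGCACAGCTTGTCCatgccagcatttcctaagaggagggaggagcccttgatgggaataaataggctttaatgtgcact

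Of the 9 tested acute-phase genes, 5 (Hp, Lcn2, Serpina3g, Lbp and Steap4) were called lower in Prrx1-Cre;Pcif1fl/fl MSCs with edgeR at an adjusted p below 0.05 and at least 2-fold, a call that 2.50% of all tested genes received. None was called higher by edgeR or by DESeq2, beside 1.03% of all tested genes, and 0 passed the adjusted p on the higher side at any fold, beside 2.88%. A further 2, Serpina3n and Ptx3, passed the adjusted p on the lower side at less than 2-fold, which with the first 5 made 7, beside 4.51% of all tested genes. The remaining 2, Saa3 and Cp, did not pass it. The libraries of the genotypes did not overlap in 7 of the 9 genes, all lower, beside 15.7% of all tested genes on that side, and overlapped in Saa3 and Cp. The median log2 fold change, taken as Prrx1-Cre;Pcif1fl/fl over Pcif1fl/fl throughout, was -1.89 over the 9 genes and 0.0017 over all tested genes. These counts follow from how the genes were picked. In bulk RNA, fewer cells that express a gene and less RNA in each cell cannot be told apart.

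**Figure D1:**
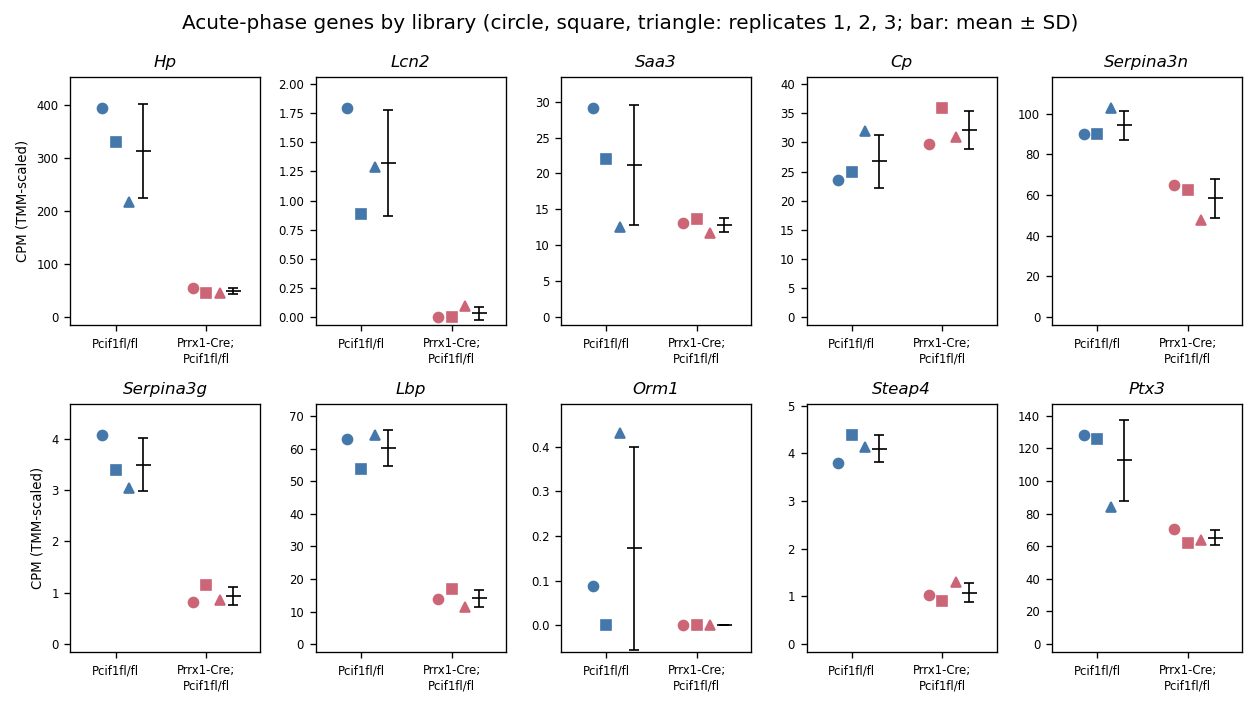
Level of each acute-phase gene in the 6 libraries, in CPM on linear axes that differ between panels, with Pcif1fl/fl in blue, Prrx1-Cre;Pcif1fl/fl in red, and the mean ± SD of 3 libraries as a bar. The colours are apart in Hp, Lcn2, Serpina3n, Serpina3g, Lbp, Steap4 and Ptx3, and they overlap in Saa3, Cp and Orm1, where Orm1 rests on 14 counts in all.

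Among the genes that handle hemoglobin, iron and copper, Hp had the most reads of the 10 genes in every Pcif1fl/fl library, and 3 of the 4 had lower levels in Prrx1-Cre;Pcif1fl/fl MSCs while Cp did not. Hp (chr8:109575128-109579172, minus strand, GRCm38), which encodes haptoglobin, had levels of 393, 329 and 217 CPM in replicates 1, 2 and 3 of Pcif1fl/fl MSCs and at 55.1, 45.4 and 45.6 CPM in the same replicates of Prrx1-Cre;Pcif1fl/fl MSCs. Every Pcif1fl/fl library was above every Prrx1-Cre;Pcif1fl/fl library, and the control libraries spread further around their mean (SD 28.4% of the mean) than the others (11.4%). The means were 313 ± 88.9 and 48.7 ± 5.55 CPM (SD, n = 3 each), a 6.42-fold difference (log2 fold change -2.68, SE 0.21). Without Pcif1fl/fl replicate 3, the library with the lowest Hp among the controls and the highest mitochondrial share, the log2 fold change was -2.88. The 10 genes summed to 736, 654 and 521 CPM in Pcif1fl/fl MSCs and to 249, 238 and 213 CPM in Prrx1-Cre;Pcif1fl/fl MSCs. Hp made up 41.6% to 53.4% of that sum in the controls and 19.1% to 22.1% in the other group. Without Hp the sum still did not overlap between genotypes, at 304 to 343 and at 168 to 194 CPM.

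Lcn2 (chr2:32384633-32388252, minus strand) encodes lipocalin-2, the siderophore-binding protein introduced above with its promoter. It was a rare transcript, with 41, 24 and 36 counts in the Pcif1fl/fl libraries, or 1.79, 0.882 and 1.29 CPM, and 0, 0 and 2 counts in the Prrx1-Cre;Pcif1fl/fl libraries. Nearly all reads were in the control group, and both reads of the other group were in its replicate 3. The ratio of the group totals, scaled to library size, was 40.9, with an exact 95% interval of 11.0 to 342 that covers counting error only. Steap4 (chr5:7960457-7982213, plus strand), the metalloreductase gene, was also low. It was at 3.80, 4.37 and 4.12 CPM in Pcif1fl/fl MSCs and at 1.04, 0.896 and 1.30 CPM in Prrx1-Cre;Pcif1fl/fl MSCs. The control libraries were close to each other and all above the other group, with a log2 fold change of -1.92 (SE 0.22). Cp (chr3:19957054-20009145, plus strand), encoding ceruloplasmin, was at 23.5, 24.8 and 32.0 CPM in Pcif1fl/fl MSCs and at 29.7, 35.8 and 31.0 CPM in Prrx1-Cre;Pcif1fl/fl MSCs. The groups overlapped, with Pcif1fl/fl replicate 3 above the lowest library of the other group, and the log2 fold change was 0.26 (SE 0.14). With 1 library left out it ranged from 0.18 to 0.41, and Cp passed the adjusted p, on the higher side, at the 0.41 without Pcif1fl/fl replicate 3.

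The relatives of these genes moved in differing directions. Heph encodes hephaestin, a copper-dependent ferroxidase related to ceruloplasmin that cells use to export iron. It lies on chromosome X, and by Xist the share of female cells also differed between the genotypes. Heph fell from 12.9 ± 1.43 to 2.57 ± 0.362 CPM (SD, n = 3 each), with a log2 fold change of -2.32 (SE 0.17, edgeR adjusted p = 0.000177). The other STEAP family genes did not follow Steap4. Steap1 rose from 7.68 ± 1.42 to 14.3 ± 0.207 CPM (log2 fold change 0.90, SE 0.16, edgeR adjusted p = 0.0106), and Steap2 rose from 71.7 ± 11.2 to 105 ± 3.29 CPM (log2 fold change 0.55, SE 0.12, edgeR adjusted p = 0.028). Both calls were below 2-fold, and the adjusted p was above 0.05 when 1 of 4 libraries was left out for Steap1, or 1 of 5 for Steap2. Without Pcif1fl/fl replicate 1, Steap1 passed both thresholds (log2 fold change 1.06, edgeR adjusted p = 0.00664). Steap3, which reduces iron in the transferrin cycle, had a log2 fold change of -0.07 (SE 0.09, edgeR adjusted p = 0.707). In the whole list of iron, heme and copper genes, 27 of 31 were tested. Heph was the 1 gene called lower at 2-fold, and 0 were called higher by edgeR or DESeq2, against 3 lower and 4 higher at an unadjusted edgeR p below 0.05. At any fold 2 fell, Heph and Bmp6, and 3 rose, Steap1, Steap2 and Slc39a14, a zinc and iron transporter. The other 22 did not pass, and the list's median log2 fold change was 0.026, or -0.039 without Pcif1fl/fl replicate 3. Cd163, the macrophage receptor that takes up haptoglobin with hemoglobin, was at 75.5 ± 11 CPM in Pcif1fl/fl and 76.8 ± 7.41 CPM in Prrx1-Cre;Pcif1fl/fl MSCs (edgeR adjusted p = 0.936).

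The protease inhibitors Serpina3n and Serpina3g lie in 1 gene cluster on chromosome 12 and differed between genotypes by unequal amounts. Serpina3n (chr12:104406729-104414329, plus strand) was at 90.2, 90.2 and 103 CPM in Pcif1fl/fl MSCs and at 65.2, 62.7 and 47.6 CPM in Prrx1-Cre;Pcif1fl/fl MSCs. The groups did not overlap, and the log2 fold change was -0.69 (SE 0.13). The adjusted p was above 0.05 without Pcif1fl/fl replicate 2 or Prrx1-Cre;Pcif1fl/fl replicate 2 or 3. Serpina3g (chr12:104236245-104241939, plus strand) was rarer, at 4.06, 3.38 and 3.05 CPM in Pcif1fl/fl MSCs and at 0.810, 1.14 and 0.866 CPM in Prrx1-Cre;Pcif1fl/fl MSCs. Here the groups were further apart, with a log2 fold change of -1.89 (SE 0.24). Of the 100-base windows of Serpina3g exons, 3.49% also occur in other Serpina3 genes, and 0.204% of those of Serpina3n do, so some reads may be shared.

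Among 7 genes of the cluster in the table, over 286.3 kb, 6 were tested. Serpina3c fell from 6.09 ± 0.532 to 1.69 ± 0.218 CPM (SD, n = 3 each), a log2 fold change of -1.84 (SE 0.19, edgeR adjusted p = 0.000759). Serpina3f fell by 1.81 on the log2 scale (SE 0.33, edgeR adjusted p = 0.0136). The call for Serpina3f was lost without Prrx1-Cre;Pcif1fl/fl replicate 1 (adjusted p = 0.0798) or replicate 3 (adjusted p = 0.0769). The 2 remaining tested neighbours did not pass. Serpina3m, between Serpina3g and Serpina3n, had a log2 fold change of -0.18 (SE 0.16, edgeR adjusted p = 0.57), and Serpina3i one of 0.92 (SE 0.71, adjusted p = 0.512) at 0.144 to 1.22 CPM. Of Serpina3m exonic bases, 3.49% overlap Serpina3k.

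**Figure D2:**
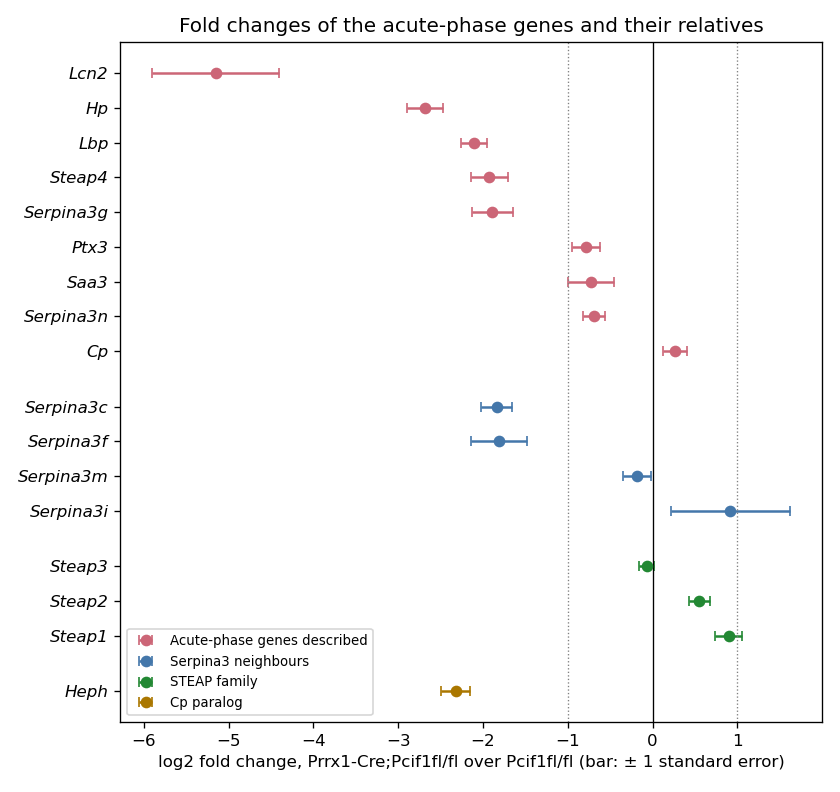
Log2 fold change, Prrx1-Cre;Pcif1fl/fl over Pcif1fl/fl, on the x axis with bars of 1 standard error from the edgeR fit, for the 9 tested acute-phase genes and for relatives in the Serpina3 cluster, the STEAP family and Heph; dotted lines mark 2-fold. Lcn2 lies furthest left at -5.15, a fitted value that depends on the prior count since 2 reads stand behind its lower group, Cp sits right of 0 at 0.26, and Steap4 at -1.92 lies opposite to Steap1 at 0.90.

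Of the genes whose proteins bind microbial products and lipids, Lbp differed most, Ptx3 less, and Saa3 did not separate the genotypes. Lbp (chr2:158306493-158332852, plus strand), whose protein hands lipopolysaccharide to CD14 and TLR4, was at 62.9, 53.8 and 64.1 CPM in Pcif1fl/fl MSCs and at 13.8, 16.8 and 11.5 CPM in Prrx1-Cre;Pcif1fl/fl MSCs. Its control libraries were close together and far above the other group, with a 4.30-fold difference (log2 fold change -2.10, SE 0.16). Ptx3 (chr3:66219910-66225805, plus strand), a secreted pentraxin that binds C1q and microbes, was at 128, 126 and 84.2 CPM in Pcif1fl/fl MSCs and at 70.7, 61.7 and 63.6 CPM in Prrx1-Cre;Pcif1fl/fl MSCs. The groups did not overlap, although Pcif1fl/fl replicate 3 lay nearer to the other group than to its own, and the log2 fold change was -0.78 (SE 0.16). Without that library it was -0.95, and without any other single library the adjusted p was above 0.05. Saa3 (chr7:46711998-46715700, minus strand), the serum amyloid A made outside the liver, was at 29.0, 22.0 and 12.5 CPM in Pcif1fl/fl MSCs and at 13.1, 13.6 and 11.7 CPM in Prrx1-Cre;Pcif1fl/fl MSCs. Pcif1fl/fl replicate 3 fell within the range of the other group, so the genotypes overlapped at a log2 fold change of -0.72 (SE 0.27). Without it the log2 fold change was -0.99, and Saa3 then passed the adjusted p, while without Pcif1fl/fl replicate 1 it was -0.43.

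Orm1 (chr4:63344560-63348163, plus strand), encoding orosomucoid, a carrier of small molecules, was near the limit of detection. It had 2, 0 and 12 counts in the Pcif1fl/fl libraries and 0 in each Prrx1-Cre;Pcif1fl/fl library. Against a floor of 3 counts over the group, Orm1 was at least 3.78-fold higher in Pcif1fl/fl MSCs, but 12 of the 14 counts came from replicate 3, and without it both groups were at the floor. In 6.95% of its exonic 100-base windows Orm1 shares sequence with Orm2, so its reads may not be its own. The paralogs were as rare, with Orm2 at up to 0.215 CPM, Orm3 at up to 0.135 CPM and Saa4 at up to 0.143 CPM in any library, and none of these 3 was tested. Saa1 and Saa2 were not analysed here.

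The receptors, ligands and target proteases of the acute-phase proteins mostly did not pass the test. Of 23 listed genes 19 were tested, and 0 were called at 2-fold in either direction by edgeR or DESeq2, against 1 lower and 4 higher at an unadjusted edgeR p below 0.05. At any fold 1 rose, Ctsl, the lysosomal protease cathepsin L, by 0.67 on the log2 scale (SE 0.11, edgeR adjusted p = 0.00961). Slc22a17, a receptor for lipocalin-2, had a log2 fold change of -0.31 (SE 0.18, adjusted p = 0.367), Cd14 one of 0.67 (SE 0.19, adjusted p = 0.0718) and Tlr4 one of 0.08 (SE 0.13, adjusted p = 0.781). The median of the list was 0.024, and between 0.072 and 0.14 with any 1 library left out.

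Divided by exonic length, to compare genes with each other, Hp was the most abundant of the 10 genes in Pcif1fl/fl MSCs at 195 ± 55.4 CPM per kilobase (SD, n = 3). Serpina3n at 45.7 ± 3.47 and Ptx3 at 42.0 ± 9.16 CPM per kilobase followed and did not differ beyond their spread. Lbp at 12.5 ± 1.17 and Saa3 at 8.12 ± 3.19 also overlapped. Cp at 2.80 ± 0.477, Serpina3g at 1.66 ± 0.246 and Steap4 at 1.30 ± 0.091 CPM per kilobase came next, each apart from its neighbour. Lcn2 at 0.504 ± 0.174 and Orm1 at 0.223 ± 0.293 were lowest and overlapped. In Prrx1-Cre;Pcif1fl/fl MSCs the lead of Hp was gone. Hp at 30.3 ± 3.46 and Serpina3n at 28.3 ± 4.62 overlapped, as did Serpina3n and Ptx3 at 24.3 ± 1.77 CPM per kilobase. Saa3 at 4.91 ± 0.381 came next, apart from Cp at 3.36 ± 0.340, which overlapped with Lbp at 2.90 ± 0.557 CPM per kilobase. Serpina3g at 0.447 ± 0.085 and Steap4 at 0.341 ± 0.065 overlapped too. Ranked from the highest level down among 13730 tested genes with a length, Hp went from rank 151 to 1467, Lbp from 3647 to 8696, and Cp from 8897 to 8247.

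The control libraries did not order the genes alike. Pcif1fl/fl replicate 3 had the lowest control level of Hp, Saa3, Serpina3g and Ptx3 and the highest of Cp, Serpina3n, Lbp and Orm1. Within Pcif1fl/fl MSCs the SD was 7.02% of the mean for Steap4, 7.59% for Serpina3n and 9.36% for Lbp, and it was 28.4% for Hp and 39.3% for Saa3. In Prrx1-Cre;Pcif1fl/fl MSCs it was between 7.27% for Ptx3 and 19.2% for Lbp among the 8 tested genes other than Lcn2.

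Among other acute-phase genes, some fell, 1 rose and others did not pass the test. Like the 10 genes, the other acute-phase genes were listed with earlier results of these data known, so their counts are a description. Of 42 listed positive acute-phase genes beyond the 10, 26 were in the table and 13 were tested. Of these 5 were called lower (C3, Serping1, Il1rn, and the Serpina3c and Serpina3f described above), beside 2.50% of all tested genes. In the same list 1 rose at less than 2-fold (Mt1), and 7 did not pass. DESeq2 called 7 lower, these 5 and the rare Mbl1 and Vtn, which edgeR's filter left out. The median was -0.17, or -0.32 without Pcif1fl/fl replicate 3. C3, the central complement protein, fell from 42.1 ± 8.62 to 8.96 ± 2.08 CPM (log2 fold change -2.23, SE 0.21, edgeR adjusted p = 0.000481). Serping1, the inhibitor of the C1 complex, fell from 480 ± 150 to 174 ± 16.3 CPM (log2 fold change -1.46, SE 0.20, adjusted p = 0.00351). Il1rn, the antagonist of the IL-1 receptor, fell from 309 ± 78.5 to 54.9 ± 5.39 CPM (log2 fold change -2.49, SE 0.18, adjusted p = 0.000171). All values are edgeR's, over 3 libraries in each genotype. None of these genes overlapped between genotypes, beside 15.7% of all tested genes that were apart on the lower side. Of 10 plasma proteins whose liver level falls in an acute phase, 3 were tested. Rbp4, the retinol carrier, fell from 7.02 ± 1.54 to 0.408 ± 0.122 CPM (log2 fold change -4.07, SE 0.29, edgeR adjusted p = 0.000154), and the other 2 did not pass. The median of these 3 genes was -0.13, and between -0.26 and -0.12 with 1 library left out, at its lowest without Pcif1fl/fl replicate 1. With DESeq2 or with no expression filter, where all 8 listed genes in the table enter, it was -0.39 and -0.37.

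The cytokines, receptors and transcription factors that induce acute-phase genes in liver mostly did not pass the test. Of 51 listed, 48 were tested, 1 was called lower, 2 higher, and 43 did not pass at any fold, with a median log2 fold change of 0.037, or 0.090 without Pcif1fl/fl replicate 3. Il1r1, the IL-1 receptor, fell from 40.0 ± 5.12 to 18.9 ± 1.91 CPM (log2 fold change -1.08, SE 0.13, edgeR adjusted p = 0.00193). The IL-6 family cytokines Lif and Osm rose, Lif from 7.48 ± 0.705 to 15.2 ± 0.937 CPM (log2 fold change 1.02, SE 0.13, adjusted p = 0.0027) and Osm from 2.36 ± 0.603 to 8.0 ± 1.65 CPM (log2 fold change 1.77, SE 0.24, adjusted p = 0.00323). Lifr, a receptor subunit for LIF, fell by 0.56 (SE 0.10, adjusted p = 0.00939) and Nfkbie by 0.58 (SE 0.11, adjusted p = 0.0192) on the log2 scale. Osmr, a receptor subunit for oncostatin M, had a log2 fold change of -0.61 (SE 0.23, adjusted p = 0.167). The 2-fold call was lost for Lif without replicate 2 of either genotype (0.95 and 0.99) and for Il1r1 without Pcif1fl/fl replicate 3 (-0.97). Il6 was at 0.131 to 0.315 CPM and was not tested. Stat3 had a log2 fold change of -0.10 (SE 0.09, adjusted p = 0.58), and its feedback target Socs3 one of 0.14 (SE 0.12, adjusted p = 0.571). Cebpb had a log2 fold change of 0.19 (SE 0.12, adjusted p = 0.419), Cebpd of -0.03 (SE 0.16, adjusted p = 0.939) and Nfkbia, an NF-kB target and inhibitor, of 0.28 (SE 0.11, adjusted p = 0.201). In Cebpb 20.7% and in Cebpd 15% of exonic bases overlap an antisense gene, and strand use in counting was not given.

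Because the medium held dexamethasone in both groups, the glucocorticoid receptor and the genes it induces were also listed. All 20 were tested. Angptl4, an inhibitor of lipoprotein lipase, was the 1 gene edgeR called lower (log2 fold change -1.11, SE 0.18, edgeR adjusted p = 0.00712; -0.90 without Pcif1fl/fl replicate 1), and 0 were called higher by edgeR or DESeq2, against 7 lower and 4 higher at an unadjusted edgeR p below 0.05. At any fold 4 fell (Angptl4, Klf15, Glul and Cdkn1c), 2 rose (Sgk1 and Mt1) and 14 did not pass, and the median was -0.09, or 0.025 without Pcif1fl/fl replicate 1. DESeq2 called 2 lower, Angptl4 and Hsd11b1, which regenerates active glucocorticoid in cells. The receptor gene Nr3c1 had a log2 fold change of 0.05 (SE 0.09, adjusted p = 0.778). Its targets Fkbp5, Tsc22d3 and Per1 had log2 fold changes of 0.20 (SE 0.16, adjusted p = 0.524), -0.05 (SE 0.14, adjusted p = 0.875) and -0.15 (SE 0.12, adjusted p = 0.531). Without Pcif1fl/fl replicate 3 the value was 0.04 for Fkbp5, -0.01 for Per1 and -0.20 for Tsc22d3, and Tsc22d3 then passed the adjusted p.

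**Figure D3:**
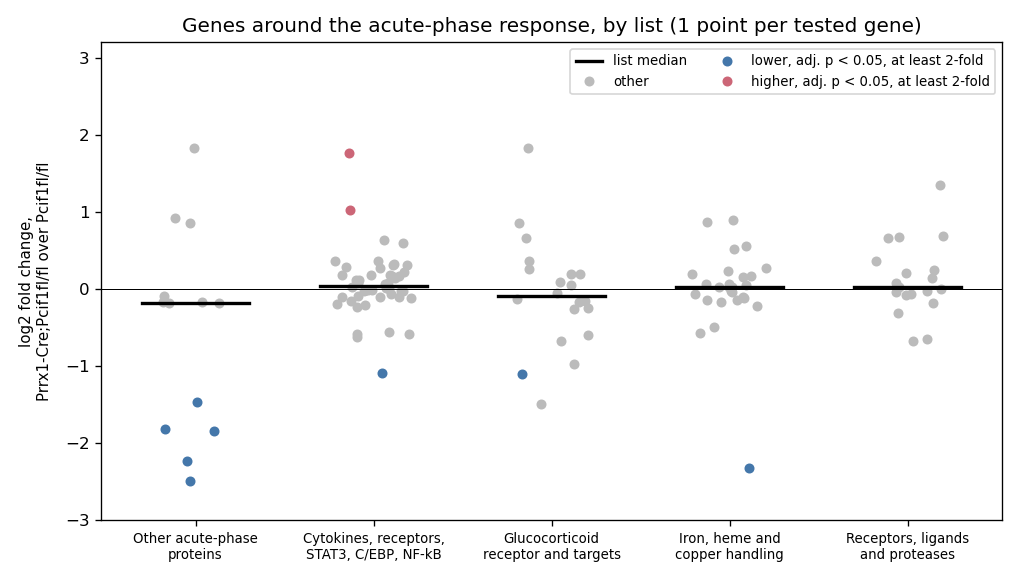
Log2 fold change, Prrx1-Cre;Pcif1fl/fl over Pcif1fl/fl, on the y axis for every tested gene (1 point each, spread sideways for legibility) of 5 lists around the acute-phase response, with the list median as a bar and colours for genes called at 2-fold. The other acute-phase proteins hold 5 of the lower calls, while the medians of the lists lie between -0.17 and 0.037.

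Markers of other cell types were read beside these values. Most adipocyte genes moved with the acute-phase genes. Of 12 adipocyte markers 10 were tested, 7 were called lower and 0 higher by edgeR and by DESeq2, with 1, Fabp4, higher at an unadjusted edgeR p below 0.05 (log2 fold change 0.46, SE 0.12, adjusted p = 0.0545). Adipoq, encoding adiponectin, was at 53.8, 42.9 and 44.3 CPM in Pcif1fl/fl MSCs and at 1.49, 0.697 and 0.289 CPM in Prrx1-Cre;Pcif1fl/fl MSCs. The lipid droplet gene Plin1 and the complement factor D gene Cfd had 0 counts in all 3 Prrx1-Cre;Pcif1fl/fl libraries, and were at least 65.5-fold and 32.6-fold higher in Pcif1fl/fl MSCs at a floor of 3 counts over the group. Pparg, the adipocyte transcription factor, fell from 30.3 ± 5.00 to 10.2 ± 0.705 CPM (log2 fold change -1.57, SE 0.15, edgeR adjusted p = 0.000557). Fabp4, Lpl and Cebpa did not pass, and with them the summed level of the list was 794 to 840 CPM in Pcif1fl/fl and 672 to 871 CPM in Prrx1-Cre;Pcif1fl/fl MSCs. The part of adipocytes in the lower acute-phase levels was not tested.

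**Figure D4:**
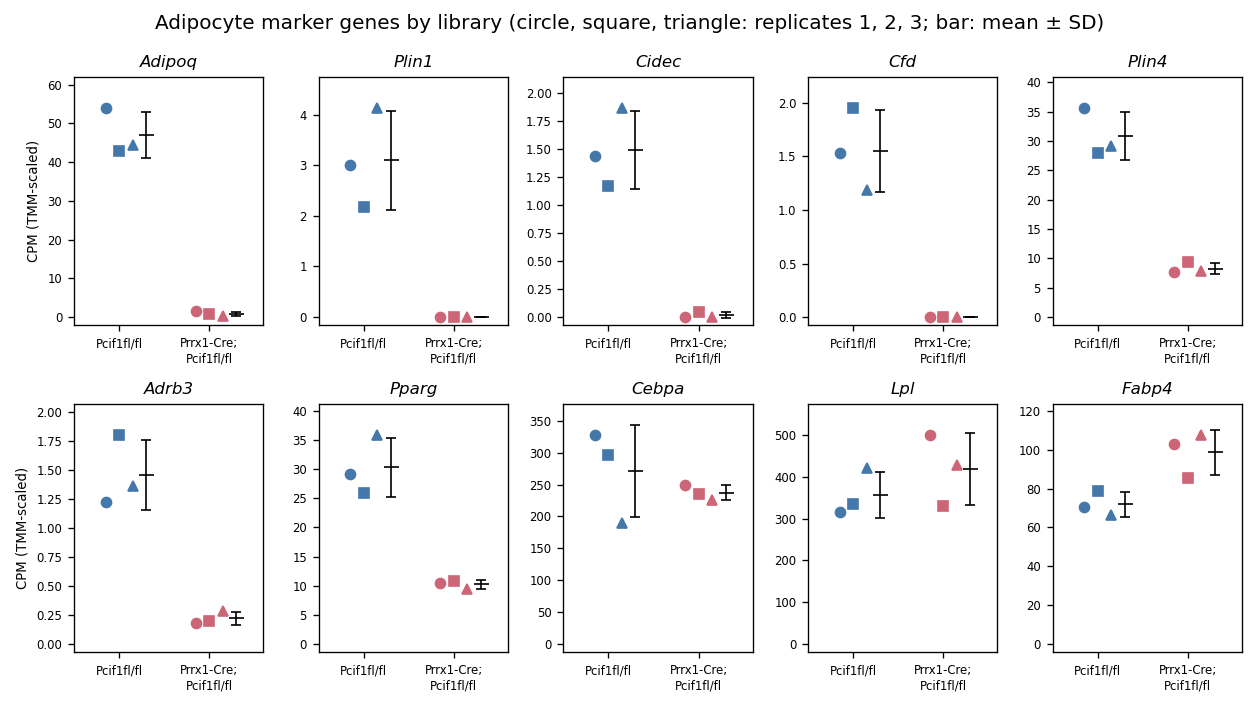
Level of 10 adipocyte markers in the 6 libraries, in CPM on linear axes that differ between panels, with Pcif1fl/fl in blue, Prrx1-Cre;Pcif1fl/fl in red, and the mean ± SD of 3 libraries as a bar. Adipoq, Plin1, Cidec, Cfd, Plin4, Adrb3 and Pparg have all red points below all blue points, with Plin1 and Cfd at 0, while the panels of Cebpa and Lpl overlap and Fabp4 has all red points above all blue points.

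Macrophage genes were abundant in both groups, with a summed level of 33744 to 36646 CPM for 14 markers in Pcif1fl/fl and 34009 to 37214 CPM in Prrx1-Cre;Pcif1fl/fl MSCs. None of the 14 was called at 2-fold by edgeR or DESeq2, against 1 lower and 3 higher at an unadjusted edgeR p below 0.05, and Fcgr1 rose at less than 2-fold. Neutrophil markers, of interest because Lcn2 is stored in neutrophil granules and Hp is made during their maturation, summed to 15.5 to 20.2 CPM in Pcif1fl/fl and 17.7 to 22.3 CPM in Prrx1-Cre;Pcif1fl/fl MSCs. Ngp, Mpo and Retnlg were at 0 in all Pcif1fl/fl libraries, and Ly6g was at 0 in all Prrx1-Cre;Pcif1fl/fl libraries. The 5 tested neutrophil markers had log2 fold changes from -1.56 to 1.45. Of them 0 passed on the lower side, and S100a8 was called higher at 2-fold (edgeR adjusted p = 0.0394). At an unadjusted edgeR p below 0.05 there were 0 lower and 1 higher, and DESeq2 called 0 lower and 1 higher. Hepatocyte markers, none of which was tested, summed to 0.221 to 0.968 CPM and 0.337 to 0.450 CPM. Alb, encoding albumin, was at 0 in all Pcif1fl/fl libraries, and Ahsg, Fgg and Cyp2e1 were at 0 in all Prrx1-Cre;Pcif1fl/fl libraries. The 10 endothelial markers summed to 36.3 to 48.6 CPM and 34.6 to 39.2 CPM, and 0 were called by edgeR or DESeq2, against 1 lower and 1 higher at an unadjusted edgeR p below 0.05. Mesenchymal markers, which the label calls for, summed to less than the macrophage markers in every library. They summed to 7411 to 9824 CPM in Pcif1fl/fl and 12690 to 13510 CPM in Prrx1-Cre;Pcif1fl/fl MSCs, with Thy1 and Lum called higher among 9 tested, and at any fold 5 higher and 1 lower. Osteoblast markers summed to 14586 to 20717 CPM and 17889 to 26653 CPM, with Sp7, Alpl and Ibsp called lower among 9 tested, and at any fold 3 lower and 1 higher.

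Over the 6 libraries, the genes whose log2 CPM was most like that of Hp were Ahcyl1 (Pearson r = 0.999), Gas6 (r = 0.999) and Otor (r = 0.997) of 12634 genes compared. These r values are a description over 6 libraries that share the genotype contrast, and 291 genes reached an r above 0.95. The sizes differed, since Otor had a log2 fold change of -2.02 (SE 0.34), Gas6, a ligand of TAM receptor kinases, one of -0.64 (SE 0.09) and Ahcyl1 one of -0.46 (SE 0.09), beside -2.68 for Hp.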

How the data were processed

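The authors mapped clean reads of poly(A) RNA to mm10 with HISAT2, after FastQC, and deposited whole-number counts of reads per gene that were not normalized. Which tool counted the reads, on which annotation and with which strand setting is not given in the sources used here. Of 20163 rows, 92 repeated an Ensembl ID with the same counts, and 20071 IDs were used. The members and lists were chosen with earlier results of these data known, and 1 gene of the list of other acute-phase proteins was left out and is not reported here. All 6 libraries entered 1 fit in edgeR 4.0.16 under R 4.3.3, with TMM scaling, filterByExpr, the quasi-likelihood test and no covariate, Benjamini-Hochberg adjusted over the 13733 genes tested. Calls needed an adjusted p below 0.05 and a log2 fold change of at least 1. Standard errors are the log2 fold change over the square root of F. CPM was scaled by TMM factors, and divided by GENCODE M21 exonic length (GRCm38, the mm10 build) for levels between genes. The script was tested on simulated data.

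Genes named were all acute-phase genes, every gene of a pathway list called at both thresholds, factors, glucocorticoid targets, paralogs and partners set by name, and the 3 genes most like Hp with at least 1 CPM on average, by log2 CPM with a prior count of 2. Other genes named beside a count (Bmp6, Slc39a14, Mt1, Ctsl, Lifr, Osmr, Nfkbie, Klf15, Glul, Cdkn1c, Sgk1, Mbl1, Vtn, Hsd11b1 and cell-type markers) were chosen after their values were seen. Motifs were searched in RefSeq promoters of GRCm38.p6. Totals of 20258209 to 28227696 counts set the precision, PCR copies were not removed by molecular identifiers, and intervals and floors cover counting error only. Alternatives were DESeq2 1.42.0, RLE or total-count scaling, no filter, a mean of at least 10 counts, the replicate number as a block, each library left out, and, added after seeing the data, no genes of chromosomes X and Y.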

Additional observations from a re-analysis of the deposited data

How the results depend on the processing

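The 5 acute-phase genes called lower, and the 0 called higher, had the same number under every alternative, DESeq2, the replicate block and each library left out included, and without the genes of chromosomes X and Y, an alternative chosen after seeing the data. Over all genes the down-regulated count was 253 to 385 and the up-regulated count 89 to 229 with 1 library left out. Leaving out Pcif1fl/fl replicate 3 gave the 229, and leaving out a Prrx1-Cre;Pcif1fl/fl library (1, 2 or 3) gave 91, 90 or 89. The cause was not tested. Replicate numbers did not pair the libraries (correlations of 0.055, -0.045 and -0.013 between same-numbered libraries), and the replicate block gave 326 lower and 126 higher genes and 5 acute-phase genes lower. Serpina3n had an adjusted p above 0.05 without Pcif1fl/fl replicate 2 or Prrx1-Cre;Pcif1fl/fl replicate 2 or 3 (log2 fold change -0.77 to -0.56 over the libraries left out). Ptx3 did so without Pcif1fl/fl replicate 1 or 2 or any Prrx1-Cre;Pcif1fl/fl library (-0.95 to -0.68). Hp ranged from -2.88 to -2.49, Lbp from -2.25 to -1.97, Steap4 from -2.08 to -1.81 and Serpina3g from -2.05 to -1.77. The fitted value of Lcn2 ranged from -7.99, without Prrx1-Cre;Pcif1fl/fl replicate 3 and thus against 0 reads, to -4.60. The median of the negative acute-phase genes was -0.39 with DESeq2 and -0.37 with no expression filter, over 8 genes instead of the 3 that pass the filter. With 1 library left out the median ranged from -0.32 to -0.14 for the other acute-phase genes, from -0.26 to -0.12 for the negative ones, from -0.039 to 0.056 for iron and copper genes, from 0.016 to 0.090 for the inducers, from -0.10 to 0.025 for the glucocorticoid list and from 0.072 to 0.14 for receptors and partners. The sign turned, with no call on either side, for Cebpd (0.15 without Pcif1fl/fl replicate 1) and Tsc22d3 (0.055 and 0.017 without Pcif1fl/fl replicates 1 and 2), and the cause was not tested. Lif, Il1r1 and Angptl4 kept an adjusted p below 0.05 in these runs but dropped below 2-fold in some. Without Pcif1fl/fl replicate 3, Tsc22d3 (-0.20) and Cebpb (0.27) passed the adjusted p. Depth limits Orm1 and Lcn2, whose differences rest on 14 against 0 and 101 against 2 reads.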
